A study of Arabidopsis thaliana with 18 samples.

Results

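A set of 10 probe sets kept their starvation signal through 4 h of phosphate resupply in both genotypes. They were found among 22746 probe sets on 18 Affymetrix arrays of Arabidopsis thaliana seedlings. The rule used the mean log2 signal of the 3 arrays of each group. The members were chosen by these measured values: the rule kept probe sets at least 2 log2 units (4-fold) higher without inorganic phosphate (Pi) than in complete medium in each genotype, and less than 0.5 away from that level after resupply in each genotype. The signal in complete medium also had to be less than 2 higher in the mutant than in WT, and the signal after resupply less than 1 apart between the genotypes. Of the 10, 8 carry 1 named gene, 1 (265670_s_at) matches several genes and 1 (257217_at) is not named here, so the last pair are given by probe set. All differences that the rule used are described below without a test, since these values chose the members.

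The 6 groups were spx1,spx2 double mutant seedlings after 4 h of Pi resupply, spx1,spx2 without Pi, spx1,spx2 in complete medium, wild-type Col-0 (WT) resupplied for 4 h, WT without Pi and WT in complete medium, with 3 arrays each that the labels call biological replicates. Whole seedlings labelled 7 days old were used, grown on solid Johnson medium, and resupplied plants had been moved from Pi-lacking to complete medium. Which spx1 and spx2 alleles were combined is not given in the sources used here, and transcripts of both genes were not analysed. In whole seedlings, a larger share of a cell type and more RNA per cell cannot be told apart.

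Plants short of Pi raise a large set of genes for taking up, freeing and saving Pi, much of it through the MYB-type factor PHR1. The SPX1 and SPX2 proteins bind PHR1 when Pi is ample and hold it back, and resupply is therefore used to ask how fast the response is shut off and whether SPX1 and SPX2 are needed for it. Starvation is also known to reshape the root, with more root hairs and altered cell walls.

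The seedling label was set against markers. The leaf gene RCA (Rubisco activase), the 1 matched of 6 listed leaf genes, had group means of 13.56 to 14.09 log2. RCH1, the 1 matched of 6 listed genes of other root tissue, had group means of 6.47 to 7.27. The 1 matched gene of the flower, pollen and seed list, AT1G29140, stayed between 3.19 and 3.41. Of 5 root hair markers 2 were matched by name, and the log2 of their summed signal read 10.60 to 10.78 in spx1,spx2 resupplied, 8.40 to 9.02 in spx1,spx2 without Pi, 8.07 to 8.73 in spx1,spx2 in complete medium, 9.46 to 9.61 in WT resupplied, 8.63 to 9.38 in WT without Pi and 7.69 to 8.34 in WT in complete medium. Their part in the signal of the 10 probe sets was not tested. The polyadenylated spike-in control dap (its 3 prime probe set) read 7.40 to 7.48 on 3 arrays, namely spx1,spx2 without Pi replicate 1, spx1,spx2 in complete medium replicate 2 and WT in complete medium replicate 3, and 9.56 to 10.77 on the other 15. Among those 15, WT resupplied arrays read 9.56 to 9.74 and WT arrays without Pi 10.30 to 10.37. Without the 3 low arrays the rule kept 13 probe sets, 9 of them among the 10, and lost 265670_s_at.

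Most starvation-induced probe sets were lower again after 4 h. At least 4-fold induction in both genotypes was met by 435 probe sets. Their resupply change (resupplied minus no Pi, log2) had a median of -1.88 in spx1,spx2 and -1.23 in WT. In 333 of the 435 (76.6%) the mean was lower by 0.5 or more in both genotypes, and in 217 by 1 or more. No probe set of the 435 was higher by 0.5 or more in both, and AT1G26250 came nearest with 0.649 in spx1,spx2 and 0.4987 in WT. A mean within 0.5 of the starved level was found for 45 of the 435 in spx1,spx2 and for 67 in WT, and for 11 in both genotypes at once. The limit on the genotype difference after resupply then removed 1 of the 11, AT2G37870, which left the 10 (2.30% of the 435).

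**Figure D1:**
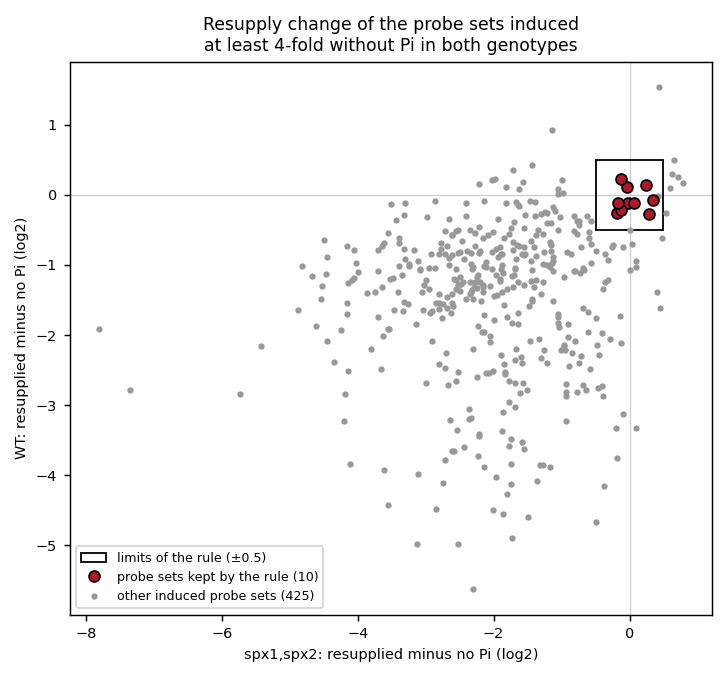
Resupplied minus no Pi (log2, difference of means of 3 arrays) in spx1,spx2 (horizontal) and WT (vertical) for the 435 probe sets induced at least 4-fold in both genotypes; the square marks the limits of 0.5 and filled red points the 10 kept. Most points lie to the lower left, and the grey point inside the square near its right side is AT2G37870.

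AT2G22510, AT5G09480 and AT4G38080 are genes of the hydroxyproline-rich glycoprotein group, proteins of the plant cell wall. AT2G22510 had 9.43, 9.65 and 9.74 in resupplied spx1,spx2, 9.36, 9.38 and 9.03 in spx1,spx2 without Pi and 6.62, 6.61 and 6.97 in spx1,spx2 in complete medium (log2 signal, replicates 1 to 3). The WT values were 9.45, 9.46 and 9.16 resupplied, 9.25, 9.42 and 9.65 without Pi, and 6.47, 6.38 and 5.84 in complete medium. All starved and resupplied arrays stood above all complete-medium arrays, and in the mutant all resupplied arrays stood above the starved ones. The signal without Pi was 5.76-fold that in complete medium in spx1,spx2 and 9.23-fold in WT.

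AT5G09480 had 10.48, 10.40 and 10.46 in resupplied spx1,spx2, 10.63, 10.59 and 10.66 without Pi and 7.92, 7.70 and 7.79 in complete medium. WT seedlings had 10.51, 10.53 and 10.43 resupplied, 10.60, 10.69 and 10.96 without Pi and 7.95, 8.01 and 7.60 in complete medium. It was the 1 member whose resupplied arrays stood below the starved ones in both genotypes, by 0.18 in the mutant means and 0.26 in the WT means. Against complete medium, 93.7% of its starvation change in spx1,spx2 and 91.1% in WT remained on the log2 scale.

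AT4G38080 had 11.25, 11.56 and 11.47 in resupplied spx1,spx2, 11.19, 11.23 and 11.03 without Pi and 8.72, 8.71 and 8.97 in complete medium. The WT arrays read 11.09, 11.09 and 10.86 resupplied, 11.30, 11.15 and 11.42 without Pi and 9.07, 8.71 and 8.42 in complete medium. After resupply all mutant arrays were above, and all WT arrays below, the starved arrays of the same genotype. The means differed by 0.28 in spx1,spx2 and by -0.27 in WT.

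AT1G26240 is a proline-rich extensin-like gene, and extensins are structural wall proteins that become cross-linked. It had 6.79, 7.21 and 7.17 in resupplied spx1,spx2, 7.12, 7.18 and 6.94 without Pi and 3.66, 4.97 and 4.17 in complete medium. Values in WT were 7.36, 7.06 and 6.94 resupplied, 6.90, 7.49 and 7.33 without Pi and 4.56, 4.43 and 5.89 in complete medium. Resupplied and starved arrays overlapped in both genotypes, while the complete-medium arrays were lower and spread more widely, with an SD of 0.66 in spx1,spx2 and 0.81 in WT. Its mean in spx1,spx2 in complete medium, 4.26, lay under 4.397, the lowest lower quartile of any array. Signals this dim may be compressed by RMA, and the arrays of that group spread from 3.66 to 4.97. The 7.05-fold difference from that group is therefore uncertain, and the direction of any error was not tested.

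AT5G49350 belongs to a family of glycine-rich proteins. It had 7.56, 7.61 and 7.75 in resupplied spx1,spx2, 7.76, 7.70 and 7.57 without Pi and 5.0, 4.78 and 4.83 in complete medium. In WT the arrays gave 7.78, 7.81 and 7.61 resupplied, 7.54, 7.51 and 7.82 without Pi and 5.46, 5.25 and 5.35 in complete medium. It had the smallest spread of the 10, with an SD of 0.12 pooled over the 6 groups. In complete medium all mutant arrays were below all WT arrays, and the means differed by -0.48.

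**Figure D2:**
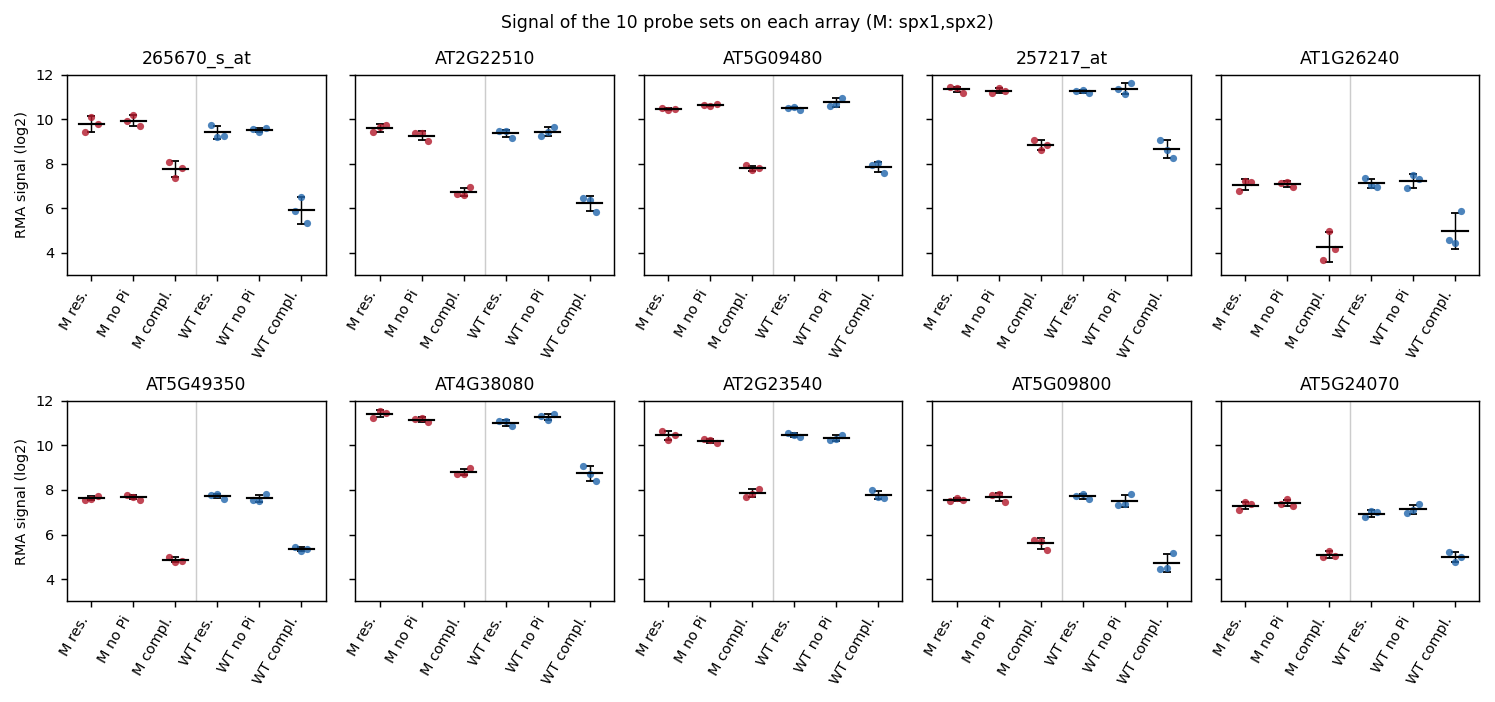
Log2 RMA signal on each array (points), with the mean of 3 arrays (horizontal line) and SD (bar), for the 10 probe sets, ordered by their mean starvation change; M stands for spx1,spx2, res. for resupplied and compl. for complete medium. In every panel the starved and resupplied arrays of a genotype stand above its complete-medium arrays and resupplied arrays lie near the starved ones, as the rule required.

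AT2G23540 and AT5G24070 encode predicted secreted enzymes, a GDSL-type esterase/lipase and a class III peroxidase of the kind that acts on wall polymers. AT2G23540 had 10.63, 10.25 and 10.48 in resupplied spx1,spx2, 10.28, 10.24 and 10.11 without Pi and 7.69, 7.83 and 8.06 in complete medium. WT seedlings had 10.55, 10.48 and 10.38 resupplied, 10.23, 10.29 and 10.47 without Pi and 8.0, 7.69 and 7.65 in complete medium. The starved and resupplied arrays overlapped in each genotype, and the resupplied mean was the higher by 0.24 in spx1,spx2 and 0.14 in WT.

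AT5G24070 had 7.10, 7.44 and 7.36 in resupplied spx1,spx2, 7.37, 7.58 and 7.30 without Pi and 4.98, 5.27 and 5.02 in complete medium. In WT it had 6.77, 7.04 and 7.00 resupplied, 6.96, 7.12 and 7.35 without Pi and 5.22, 4.79 and 4.98 in complete medium. After resupply all mutant arrays were above all WT arrays. Its starvation change in WT, 2.15 (4.42-fold), was the nearest of the 10 to the limit of 2.

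AT5G09800 encodes a protein of the U-box and armadillo-repeat type, a class of ubiquitin ligases. It had 7.50, 7.63 and 7.56 in resupplied spx1,spx2, 7.77, 7.80 and 7.48 without Pi and 5.75, 5.72 and 5.32 in complete medium. In WT it had 7.72, 7.83 and 7.60 resupplied, 7.34, 7.36 and 7.81 without Pi and 4.46, 4.49 and 5.19 in complete medium. In complete medium all mutant arrays stood above all WT arrays, and the means differed by 0.88. The starvation change was 2.09 in spx1,spx2, the nearest to the limit in that genotype, and 2.79 in WT.

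Of the probe sets given by number, 265670_s_at averaged 9.76 ± 0.36 in resupplied spx1,spx2, 9.93 ± 0.25 without Pi and 7.75 ± 0.37 in complete medium (SD, n = 3). In WT it averaged 9.40 ± 0.30 resupplied, 9.52 ± 0.10 without Pi and 5.90 ± 0.60 in complete medium. Its complete-medium signal was 1.86 higher in spx1,spx2 than in WT (3.62-fold), so the starvation change was 2.18 in spx1,spx2 and 3.62 in WT. The unnamed 257217_at averaged 11.33 ± 0.13, 11.27 ± 0.12 and 8.84 ± 0.22 in spx1,spx2 (resupplied, no Pi, complete medium) and 11.25 ± 0.06, 11.36 ± 0.24 and 8.65 ± 0.39 in WT. Its arrays overlapped between resupplied and starved, and between the genotypes, in each medium.

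Across the 10, starvation changes ran from 2.09 to 2.82 in spx1,spx2 and from 2.15 to 3.62 in WT. Over the 435 induced probe sets they had medians of 2.81 and 3.12, with highest values of 7.80 and 8.72. The members' medians of 2.39 and 2.63 thus lay below those of the set they were drawn from. Resupply changes ran from -0.18 to 0.35 in spx1,spx2 and from -0.27 to 0.22 in WT. Relative to complete medium, resupplied signals were still 3.91- to 7.32-fold in spx1,spx2 and 3.84- to 11.3-fold in WT. As a share of the starvation change on the log2 scale, 92.1% to 114% was left in spx1,spx2 and 89.3% to 108% in WT. The limits on the starvation and resupply changes hold these shares and folds high, so nothing follows from their size.

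Starved and complete-medium arrays were apart, with the starved ones higher, in 10 of 10 probe sets in each genotype. The same held for 20.3% of all probe sets in spx1,spx2 and 22.2% in WT. Resupplied arrays were likewise all above the complete-medium arrays in 10 of 10 (24.7% of all probe sets in spx1,spx2 and 26.4% in WT). Because the rule fixed these contrasts, nothing follows from the counts. Between resupply and starvation, the resupplied arrays were all higher in 2 members in spx1,spx2 (27.4% of all probe sets) and in 0 in WT (25.7%). They were all lower in 1 member in spx1,spx2 (24.4%) and in 2 in WT (32.3%). The rule used this contrast too. In complete medium, mutant arrays were all higher than WT in 3 members (12.5% of all probe sets), 265670_s_at, AT2G22510 and AT5G09800, and all lower in 1 (13.1%), AT5G49350. After resupply they were all higher in 2 (28.4%), AT4G38080 and AT5G24070, and all lower in 0 (21.2%).

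The number of members above their group mean on an array ran from 1 to 10, and it was 5 on spx1,spx2 in complete medium replicates 1 and 3. All 10 were above it on WT without Pi replicate 3, by 0.18 on average, as were 40.3% of all probe sets. On spx1,spx2 without Pi replicate 3 it was 1 of 10, with an average of -0.12, and 45.5% of all probe sets. On the 3 arrays with the low spike-in control the mean deviations were 0.03, -0.01 and -0.07 (spx1,spx2 without Pi, spx1,spx2 in complete medium, WT in complete medium). The SD pooled over groups had a median of 0.20 over the members, 0.23 over the 435 and 0.16 over all probe sets.

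The genotype difference in starved seedlings is given for the 10 as a description, without a test. The rule sets no limit on it directly, but the limits on both resupply changes and on the genotype difference after resupply add up to one of less than 2 either way, and they favour small values. AT2G37870, which the last of these limits removed, was 1.5 higher in spx1,spx2 without Pi, with all mutant arrays above all WT arrays. Over all 22746 probe sets limma called 189 (0.831%) at an adjusted p under 0.05, 77 with a higher signal in spx1,spx2 (0.339%) and 112 with a lower one (0.492%). The 10 include 0 of these, from which nothing is read since the rule held their differences small. The count of 189 was 49 without WT replicate 2, 66 without spx1,spx2 replicate 2, 105 without spx1,spx2 replicate 1 and 110 without WT replicate 1, each left out from the arrays without Pi.

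The members' differences ran from -0.18 to 0.42, with 4 above 0 and 6 below. For AT5G49350 the mutant mean was 7.68 and the WT mean 7.62, a difference of 0.06 ± 0.11 (SE, n = 3 arrays per group, 95% interval -0.17 to 0.28). AT5G09480 differed by -0.12 (-0.36 to 0.12), AT2G23540 by -0.12 (-0.38 to 0.15), 257217_at by -0.10 (-0.44 to 0.25), AT4G38080 by -0.14 (-0.44 to 0.16) and AT2G22510 by -0.18 (-0.52 to 0.16). AT5G09800 differed by 0.18 (-0.19 to 0.55) and AT5G24070 by 0.28 (-0.01 to 0.56). The widest intervals were those of AT1G26240, -0.82 to 0.50, and 265670_s_at, -0.11 to 0.94. For 265670_s_at all 3 mutant arrays were above all WT arrays, as was the case for 10.2% of all probe sets, and no member had all mutant arrays below (11.7%).

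**Figure D3:**
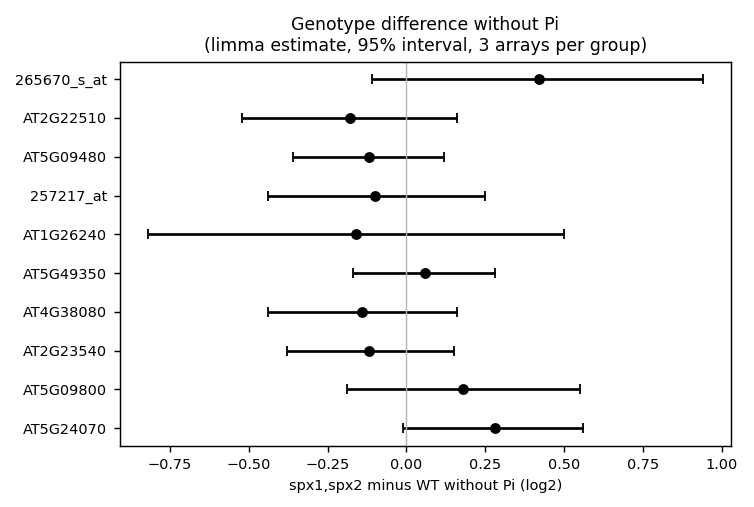
Difference spx1,spx2 minus WT without Pi (log2; point, limma estimate; bar, 95% interval; 3 arrays per group) for the 10 probe sets. The rule favours small differences here, and the longest intervals are those of AT1G26240 and 265670_s_at.

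Known genes of the Pi response were followed for comparison. No member is in any of the gene lists used. Over 5 lists of Pi-related genes 18 of 71 listed genes were matched by name to a probe set, and the others may be among the probe sets not named here. On starvation 16 of the 18 rose and 2 fell in spx1,spx2 by limma (17.7% and 26.3% of all probe sets), and 16 rose and none fell in WT (20.4% and 28.1%). On resupply 9 fell and 2 rose in spx1,spx2 (19.3% and 23.5% of all probe sets), and 12 fell and 3 rose in WT (19.0% and 18.4%). The median resupply change of the 18 was -0.42 in spx1,spx2 and -1.06 in WT, beside -0.01 and -0.05 over all probe sets. These counts include 5 reporters chosen with their rise in these samples known. Of the other 13 genes, 11 rose and 2 fell on starvation in spx1,spx2 and 11 rose in WT, and on resupply 6 fell and 2 rose in spx1,spx2 and 7 fell and 3 rose in WT. All the lists were chosen with earlier results of these data known, so the counts of the 13 are a description too. Both comparisons share the starved arrays.

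The 5 reporters, genes known mainly for their strong response to low Pi, include 4 that were at least 4-fold higher in both genotypes. Since they were chosen with that rise known and resupply shares the starved arrays, their adjusted p-values are given as description only. After resupply 3 of the 5 fell in spx1,spx2 and 5 of 5 in WT. OCT1 (AT1G73220), an organic cation transporter gene, changed by -2.52 ± 0.15 in spx1,spx2 (adjusted p = 1.84e-10, limma) and by -4.98 ± 0.15 in WT (adjusted p = 4.15e-14, SE, n = 3 arrays per group). AT5G17340 changed by -2.31 ± 0.22 and -5.63 ± 0.22 in the same order. AT5G20790 was at -0.37 ± 0.16 in spx1,spx2, which did not pass (limma adjusted p = 0.0752), and fell by 4.15 on the log2 scale in WT. Of its WT starvation change 46.7% was left, and of that of OCT1 31.5%.

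Among matched phosphatase genes, the purple acid phosphatase gene PAP1 (AT1G13750) changed by -0.94 ± 0.12 in spx1,spx2 and -2.82 ± 0.12 in WT on resupply, and SAL2 (AT5G64000) by -1.84 ± 0.12 and -2.55 ± 0.12. PAP20 (AT3G52780) was at -0.16 and -0.28, neither of which passed (limma adjusted p = 0.381 and 0.113). Its starvation changes of 1.48 and 1.57 were under the limit of the rule. The HHO1, HHO2 and HHO3 factor genes, which link nitrate and Pi supply, fell in 2 of 3 cases in spx1,spx2 and 3 of 3 in WT. Of the 4 matched metabolic bypass genes 2 fell and 1 rose on resupply in each genotype. The starch synthesis gene APL4 changed by -1.35 and -0.65 and the sugar transporter gene SWEET11 by -0.34 and -0.54. The starch synthesis gene APL3 had resupply changes of -0.09 and -0.03, and the external NADH dehydrogenase gene NDB2 rose by 0.95 and 0.63. The vacuolar Pi transporter gene VPT1 rose on starvation by 0.60 and 1.16 and had resupply values of 0.09 and -0.12 that did not pass. LPR1 and LPR2, matched from the same list, were the 2 Pi list genes that fell on starvation in spx1,spx2. LPR1 changed by -0.49 and 0.24 on starvation and by 0.88 and 1.5 on resupply. LPR2 changed by -0.58 and 0.26 on starvation and by 0.29 and 0.58 on resupply. APL3 missed the rule by its starvation change of 0.71 in spx1,spx2, and NDB2 by one of 0.91 there and by its resupply changes in both genotypes.

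**Figure D4:**
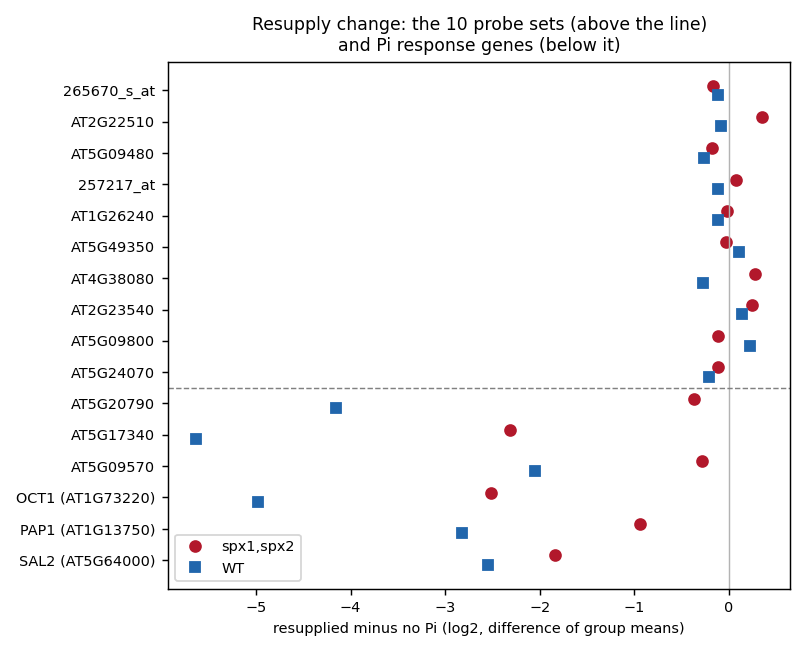
Resupplied minus no Pi (log2, difference of means of 3 arrays) in spx1,spx2 (circles) and WT (squares) for the 10 probe sets, above the dashed line, and for the 6 matched reporter and phosphatase genes induced at least 4-fold in both genotypes, below it. The 10 were chosen to lie near 0; the 6 reach -5.63 in WT.

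Probe sets just outside the limits show how the group ends. The nearest to the WT resupply limit was the lectin-type gene AT1G52070, 0.501 below its starved level and 0.00 in spx1,spx2. At the mutant limit the nearest named one was AT3G02480, a late embryogenesis abundant protein gene, with changes of -0.57 in spx1,spx2 and -0.37 in WT. AT1G08230, a GABA transporter gene, missed the mutant starvation limit with 1.99, and the sugar transporter gene AT4G25010 the WT limit with 1.88. The mutant starvation limit alone left out 64 probe sets, the mutant resupply limit 21, the WT resupply limit 11 and the WT starvation limit 2. Members nearest to the resupply limits were AT2G22510, at 0.35 in spx1,spx2, and AT4G38080, at 0.27 below its starved level in WT.

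AT2G37870, a lipid transfer protein-like gene, met every limit but that on the genotype difference after resupply. It had 10.64, 10.35 and 10.20 in resupplied spx1,spx2, 10.23, 9.78 and 9.90 without Pi and 5.47, 6.23 and 5.92 in complete medium. In WT it had 8.40, 8.74 and 8.25 resupplied, 8.39, 8.45 and 8.57 without Pi and 5.68, 5.18 and 5.84 in complete medium. It thus kept its starved level in both genotypes, at a level that was 1.93 higher in the mutant after resupply.

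Flanking genes were looked up in the RefSeq annotation (TAIR10.1). Of 16 protein-coding neighbours of the 8 named members 7 were matched by name to a probe set, and 1 of the 7 was higher by 2 or more without Pi in both genotypes. This was AT1G26250, next to AT1G26240 and likewise a proline-rich extensin-like gene. It had 10.52, 10.29 and 10.68 in resupplied spx1,spx2, 9.93, 9.88 and 9.72 without Pi and 7.66, 7.93 and 7.39 in complete medium. In WT it had 10.66, 10.68 and 10.52 resupplied, 9.84, 10.22 and 10.30 without Pi and 6.80, 7.16 and 7.35 in complete medium. All resupplied arrays stood above the starved ones in both genotypes, and the means differed by 0.65 and 0.50. Extensin genes share repeated sequence, and whether the probes of this pair read each other's transcripts was not tested. The starvation changes of the other 6 matched neighbours lay between -0.79 and 0.35.

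Relatives of a pair of members could be followed by name. These families were taken up after the members were known and are given without a test. Of 9 matched genes named plant U-box in RefSeq, 3 were at least 4-fold higher without Pi in both genotypes. Over all probe sets this held for 435 of 22746. PUB23 (AT2G35930) then differed by -2.66 in spx1,spx2 and -0.90 in WT after resupply, PUB19 (AT1G60190) by -1.85 and -0.62, and PUB22 (AT3G52450) by -1.13 and -0.17. AT5G09800, of the same protein type, was at -0.12 and 0.22. The rule required its values to lie within 0.5, so nothing follows from its contrast with the 3 genes. Of 6 matched peroxidase genes with a PRX or PER name none reached 4-fold in both genotypes. Peroxidase genes without such a name, AT5G24070 among them, were missed by this search, so other relatives may behave differently. Among the 6, the highest starvation change was 1.74, for PRX72 (AT5G66390) in WT. PRX72 had 0.93 in spx1,spx2 and resupply changes of -0.10 and -0.34. AT5G24070 had 2.33 and 2.15 on starvation and -0.12 and -0.21 on resupply. The rule set limits on both changes of AT5G24070, so nothing follows from its contrast with the 6.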

How the data were processed

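The deposited values are log2 RMA signals, 1 per probe set and array, made by the authors per the submitters' processing notes. RMA corrects background, quantile-normalizes arrays and summarises probes by median polish. The log base was inferred from the range, 2.29 to 14.35. The sources used here name no software version or probe set definition. A shift of most genes in one direction would be hidden by quantile normalization. Of 22810 probe sets, 64 controls were left out. Names came from the platform annotation, updated through RefSeq: 13513 probe sets have 1 gene, 503 several, and 8730 are not named here.

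The rule was applied to group means in Python 3.11.15 (pandas 2.3.3). All 18 arrays were fitted with limma 3.58.1 (R 4.3.3), a mean per group, with 12 residual and 6.40 prior degrees of freedom, and two-sided p-values adjusted over 22746 probe sets at 0.05. The fit was tested on simulated data. Precision is limited by 3 arrays per group. Every member may be named, and other genes come from the lists, the limits of the rule, the flanking genes and name families. Neighbours and families were added after values were seen. The members and lists were chosen with earlier results of these data known. The members' genotype difference without Pi had been planned as a test and is given as a description, since the rule limits it indirectly. Where a gene had several probe sets, the one with the highest mean was used. Alternatives were scaling, averaging, thresholds, array weights, variance trend, spike-in and replicate blocks, dim probe sets, the arrays fitted and leaving out arrays. The alternatives for the Pi list counts were added after seeing the data. Sequences were not analysed here.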

Additional observations from a re-analysis of the deposited data

Results flagged for a closer look

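AT4G38080 was the 1 member whose resupplied and starved arrays were apart in opposite directions in the genotypes. All 3 resupplied arrays were above the starved ones in spx1,spx2 (27.4% of all probe sets) and all 3 were below them in WT (32.3%). The share of all probe sets that did both was not counted, so nothing is read from this pattern. The resupply change was 0.28 in spx1,spx2 and -0.27 in WT, 0.55 apart on the log2 scale. This difference was not tested, since the rule limits both changes. The WT resupplied arrays also had lower dap spike-in signals than the WT arrays without Pi (9.56 to 9.74 against 10.30 to 10.37), and the part of labelling in the difference was not tested.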

How the results depend on the processing

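The number of probe sets kept moved most with the limits themselves: 2 with a starvation limit of 2.5, 41 with 1.5 and 27 with a resupply window of 0.75. A window of 0.25 kept 7 and lost AT2G22510, AT5G09480 and AT4G38080, the 3 genes of the hydroxyproline-rich glycoprotein group. Centring each array kept 14, medians 11, and leaving out 1 array at a time 10 to 14. Of the 10, 8 were kept in all 18 of these runs. 265670_s_at was lost without spx1,spx2 in complete medium replicate 2 or WT in complete medium replicate 2, and AT5G09800 without spx1,spx2 in complete medium replicate 3. The cause was not tested. The members' genotype differences without Pi, which the rule kept small, lay between -0.44 and 0.58 over the alternatives run, and 3 of 140 changed sign, to at most 0.02 in size. Over all probe sets 189 were called, 125 with the replicate block, 667 with array weights and 49 to 155 with 1 array left out. Replicate numbers gave no sign of pairing: same-numbered arrays of different groups had a median correlation of deviations of -0.007, and 2 of 18 arrays correlated best with one of their own number. With the block the Pi list counts stayed at 16 and 16 higher on starvation and 9 and 12 lower on resupply (spx1,spx2 and WT). With 3 arrays per group the members' intervals reached 0.94.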

Other observations

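With the starvation limit lowered to 1.5 the rule kept 41 probe sets, which include the 10. Of the 31 added, 16 have 1 named gene. The examples here were chosen after their values were seen and are given without a test. AT2G35380 had starvation changes of 1.94 in spx1,spx2 and 1.84 in WT and resupply changes of 0.45 and 0.07. AT1G70170 (MMP, a matrix metalloproteinase) had starvation changes of 1.76 and 2.39 and resupply changes of 0.25 and -0.36. AT1G80820 (CCR2, a cinnamoyl-CoA reductase of the lignin pathway) had starvation changes of 1.81 and 2.44 and resupply changes of -0.29 and -0.14.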
